A study of Homo sapiens with 24 samples.

Results

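The data compared here are 6 of the 24 RNA-sequencing libraries of the series, namely the 0 h libraries, 3 of C/EBPδ-inducible and 3 of CTRL cells. Members were chosen by their labels alone, as the columns named for the CEBPD and the CTRL line at t0, and the difference was described over all genes that could be tested. Both lines were made from MIA PaCa-2, a cell line from a human pancreatic carcinoma, by transduction with the Tet-On vector pCW57, which carries a doxycycline-dependent transactivator and its TRE promoter. In C/EBPδ-inducible cells the promoter drives a CEBPD cDNA and the cells also carry the green fluorophore mVenus, whereas CTRL cells lack the cDNA and carry the red fluorophore mCherry. The C/EBPδ-inducible line is a pool of 3 clones, so the cDNA, the fluorophore and the origin of the clones differ together between the lines and cannot be told apart in these libraries. The other libraries come from the same lines after 8, 24 or 48 h with 2 µg/mL doxycycline. The labels of the 0 h libraries list that dose as well, while the methods of the study describe 0 h wells as having had none, and the cells are treated here as untreated. The replicates are wells seeded in parallel, so the p values measure the spread between wells of one line and not between independently made lines.

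C/EBPδ is a basic leucine zipper transcription factor that binds DNA as a dimer with itself or with other C/EBP proteins. In most resting tissues it is low, and it is known as an early factor of the acute-phase response and of adipocyte differentiation. In a Tet-On design, the untreated inducible line is the reference from which a response to doxycycline is read, and the question addressed here is by which genes that reference differs from the control line before any doxycycline.

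Each library held between 17328881 and 22053973 counts, and its 10 most abundant genes made up 4.71 to 4.83% of these. Levels are given as CPM, the count of a gene per 1e+06 counts of its library, after TMM scaling, in the order of replicates 1, 2 and 3, and differences as the log2 fold change of C/EBPδ-inducible over CTRL cells with its standard error. A line is called at the floor for a gene when none of its libraries exceeds 3 counts. This limit lies between 0.133 and 0.176 CPM in these libraries and covers counting error only. CEBPD itself was at 4.11, 3.64 and 3.84 CPM in CTRL and 18.5, 22.7 and 21.7 CPM in C/EBPδ-inducible cells (log2 fold change 2.44 ± 0.11, adjusted p = 2.85e-13), and the counts do not separate transcripts of the cDNA from those of the endogenous gene. All 3 libraries of the inducible line lay above all CTRL libraries for it. Of the markers of MIA PaCa-2, 6 were tested, 5 of them lower and 0 higher, with a median log2 fold change of −1.94. KRT8 and KRT18 were far lower and are given with the keratins. VIM, an intermediate filament protein of mesenchymal cells, was at 6745, 6879 and 6777 CPM in CTRL and 5689.7, 5613 and 5767 CPM in C/EBPδ-inducible cells. CDKN2A, which is deleted in MIA PaCa-2, had at most 2 counts in any library. MTAP, its neighbor in that deletion, had at most 3 counts in the CTRL libraries and 11, 10 and 0 counts in the C/EBPδ-inducible libraries. Among markers of other cell types, PTPRC, CD3E, MS4A1, DCN, FAP, CPA1, PRSS1, AMY2A and PNLIP had no count in any of the 6 libraries. LYZ was at 2.63, 2.41 and 1.69 CPM in CTRL and 1.61, 5.2 and 0.0549 CPM in C/EBPδ-inducible cells, EPCAM at 1.32, 1.12 and 0.922 CPM in CTRL and 2.24, 0.444 and 0.11 CPM in C/EBPδ-inducible cells, and KRT7 at 0.548, 0.353 and 0.973 CPM in CTRL and 0.937, 0.755 and 0.494 CPM in C/EBPδ-inducible cells, and the libraries of both lines overlapped for each of these 3. Without C/EBPδ-inducible replicate 1, EPCAM was called lower (log2 fold change −1.91), and LYZ was at −1.39 without C/EBPδ-inducible replicate 2. Of the 11 ductal and acinar markers, 4 were tested, with KRT19, MUC1 and SOX9 lower and 0 higher. Their summed level ranged from 365 to 389 CPM in CTRL and from 112 to 121 CPM in C/EBPδ-inducible cells. Of the fibroblast markers, 3 of 10 were tested, COL1A2 lower and COL3A1 and PDGFRB higher (COL3A1 was not called without C/EBPδ-inducible replicate 2), and their summed level ranged from 619 to 655 CPM in CTRL and from 234 to 249 CPM in C/EBPδ-inducible cells. Of the 11 leukocyte and endothelial markers, 3 were tested, with CDH5 higher, and the summed level ranged from 3.99 to 5.09 and from 4.01 to 8.49 CPM. The part of other cell types in the results was not tested.

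A large share of the transcriptome differed between the untreated lines, mostly by small amounts. Of 15317 genes tested with edgeR, 6726 (43.9%) were differentially expressed genes (DEGs) at a false discovery rate (FDR) of 0.01, and 3071 (20.0% of genes tested) had higher and 3655 (23.9%) lower levels in the C/EBPδ-inducible line. The majority in the lower direction depended on the scaling: with upper-quartile scaling, which shifted the median over all genes by 0.062 on the log2 scale, 4049 were higher and 3131 lower, so the share of DEGs that were higher was 56.4% in place of 45.7%. Over all genes tested, the log2 fold change had a median of 0.01. Changes of more than 2-fold were found for 565 higher and 789 lower DEGs (8.84% of genes tested), changes of more than 4-fold for 214 and 289, and changes of more than 16-fold for 64 and 89. The median absolute log2 fold change was 0.37 among higher and 0.51 among lower DEGs. Libraries of the lines did not overlap for 9187 genes (60.0% of those tested), among them 3055 of the 3071 higher and 3645 of the 3655 lower DEGs. CTRL cells were at the floor for 40 of the higher DEGs and C/EBPδ-inducible cells for 58 of the lower ones. Protein-coding genes were DEGs in 52.2% of cases, long non-coding RNAs in 22.1% and pseudogenes in 12.5%. The share followed expression as well, with 23% in the lowest, 48.1% in the middle and 60.6% in the highest tertile of mean CPM, so differences between these classes and differences in depth per gene cannot be told apart here.

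**Figure D1:**
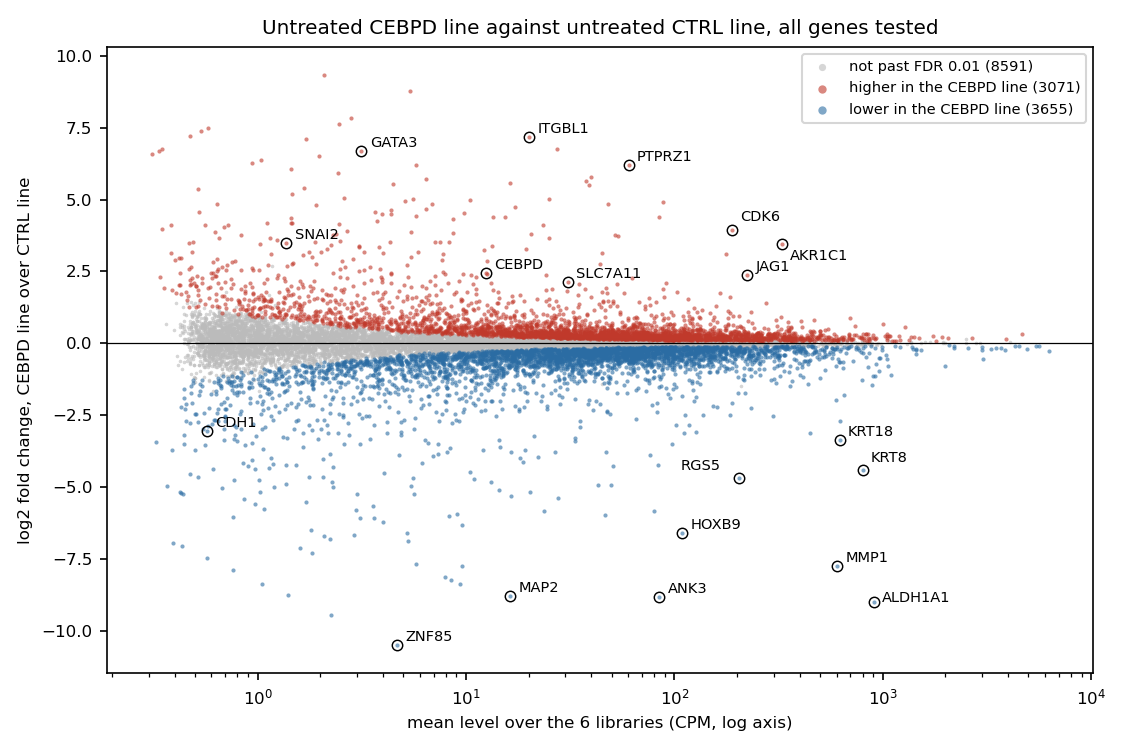
The log2 fold change between untreated C/EBPδ-inducible and CTRL cells (vertical axis) is plotted against mean CPM over the 6 libraries (horizontal axis, log scale) for 15317 genes, with 3071 higher and 3655 lower DEGs in color. Changes of more than 16-fold were seen for 64 higher and 89 lower DEGs, ALDH1A1 and MMP1 among the lower ones, and fitted values of genes at the floor in a line are not bounds on their change.

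Among protein-coding genes, the largest differences in the higher direction belonged to genes of varied function with low levels in CTRL cells. ITGBL1, a secreted protein with integrin-like repeats (ENSG00000198542, chromosome 13, 101452593 to 101720856), was at 0.11, 0.588 and 0.154 CPM in CTRL and 40.6, 39.4 and 39.9 CPM in C/EBPδ-inducible cells (log2 fold change 7.16 ± 0.16, adjusted p = 1.00e-17). TENM2, a teneurin that takes part in synaptic adhesion (ENSG00000145934, chromosome 5, 166979029 to 168264157), was at 0.384, 0.47 and 0.615 CPM in CTRL and 56.2, 53.9 and 52.4 CPM in C/EBPδ-inducible cells (log2 fold change 6.76 ± 0.11, adjusted p = 7.21e-20). PTPRZ1, a receptor tyrosine phosphatase of glial cells (ENSG00000106278, chromosome 7, 121873089 to 122062036), was at 1.54, 1.94 and 1.38 CPM in CTRL and 119.8, 119.7 and 117 CPM in C/EBPδ-inducible cells (log2 fold change 6.20 ± 0.075, adjusted p = 5.85e-22). For these genes every C/EBPδ-inducible library was far above every CTRL library, and the estimate for ITGBL1 rose to 8.17 without CTRL replicate 2. GATA3, a zinc finger factor of luminal epithelium and T cells (ENSG00000107485, chromosome 10, 8045378 to 8075198), was at 0.0548, 0 and 0.102 CPM in CTRL and 6.66, 6.35 and 5.71 CPM in C/EBPδ-inducible cells, and since CTRL cells were at the floor it was at least 35.4-fold higher. PIK3CG, a catalytic subunit of phosphoinositide 3-kinase typical of leukocytes (ENSG00000105851, chromosome 7, 106865278 to 106908980), was at 0.658, 0.588 and 0.717 CPM in CTRL and 31.4, 33.3 and 30.7 CPM in C/EBPδ-inducible cells (log2 fold change 5.59 ± 0.12, adjusted p = 4.36e-18). The remaining genes of the 10 with the largest increases were the membrane receptor PAQR5, the channel subunit CACNG7, the cytoskeletal protein NAV3, the lipid flippase ATP8B1 and the FERM domain protein FRMD6, with log2 fold changes from 5.49 to 5.80. The long non-coding RNA ENSG00000254187, the pseudogene WFDC21P and the L6 family membrane protein TM4SF4 were at the floor in CTRL cells and at least 60.8-, 31.7- and 27.7-fold higher. Exons of ITGBL1, PAQR5, ATP8B1 and WFDC21P overlap a gene on the other strand, which leaves their values uncertain.

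In the lower direction, several genes that CTRL cells expressed at a high level were nearly silent in C/EBPδ-inducible cells. ALDH1A1, a retinaldehyde dehydrogenase (ENSG00000165092, chromosome 9, 72900671 to 73080442), was at 1821, 1839 and 1769.6 CPM in CTRL and 2.66, 2.35 and 5.87 CPM in C/EBPδ-inducible cells (log2 fold change −9.00 ± 0.10, adjusted p = 3.24e-22). MMP1, the interstitial collagenase (ENSG00000196611, chromosome 11, 102789401 to 102798160), was at 1209.6, 1199.5 and 1193 CPM in CTRL and 4.58, 5.33 and 7.02 CPM in C/EBPδ-inducible cells (log2 fold change −7.74 ± 0.059, adjusted p = 9.69e-25). ANK3, ankyrin G, which links membrane proteins to the spectrin skeleton (ENSG00000151150, chromosome 10, 60026298 to 60733490), was at 172, 172 and 162 CPM in CTRL and 0.416, 0.267 and 0.439 CPM in C/EBPδ-inducible cells (log2 fold change −8.82 ± 0.088, adjusted p = 4.54e-23). The lines did not come near each other in any library for these 3 genes. MAP2, a microtubule-associated protein of dendrites (ENSG00000078018, chromosome 2, 209424047 to 209734147), was at 34.4, 31.5 and 31.7 CPM in CTRL and 0, 0.0444 and 0.165 CPM in C/EBPδ-inducible cells and at least 198-fold lower, as C/EBPδ-inducible cells were at the floor. HAPLN1, which links hyaluronan and proteoglycans in the matrix (ENSG00000145681, chromosome 5, 83637805 to 83720855), was at least 114-fold lower, at 19.2, 17.8 and 19.3 CPM in CTRL and 0, 0.133 and 0 CPM in C/EBPδ-inducible cells. The kinase RPS6KA6, the synaptic organizer IL1RAPL1 and the zinc finger genes ZNF85 and ZNF558 were at least 69.9-, 63.3-, 56.6- and 96.2-fold lower. The last of the 10 largest decreases, HOXA3, and its antisense RNA HOXA-AS2 are described with the HOX genes. Exons of ANK3, MMP1 and ZNF558 overlap a gene on the other strand, which leaves their values uncertain.

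**Figure D2:**
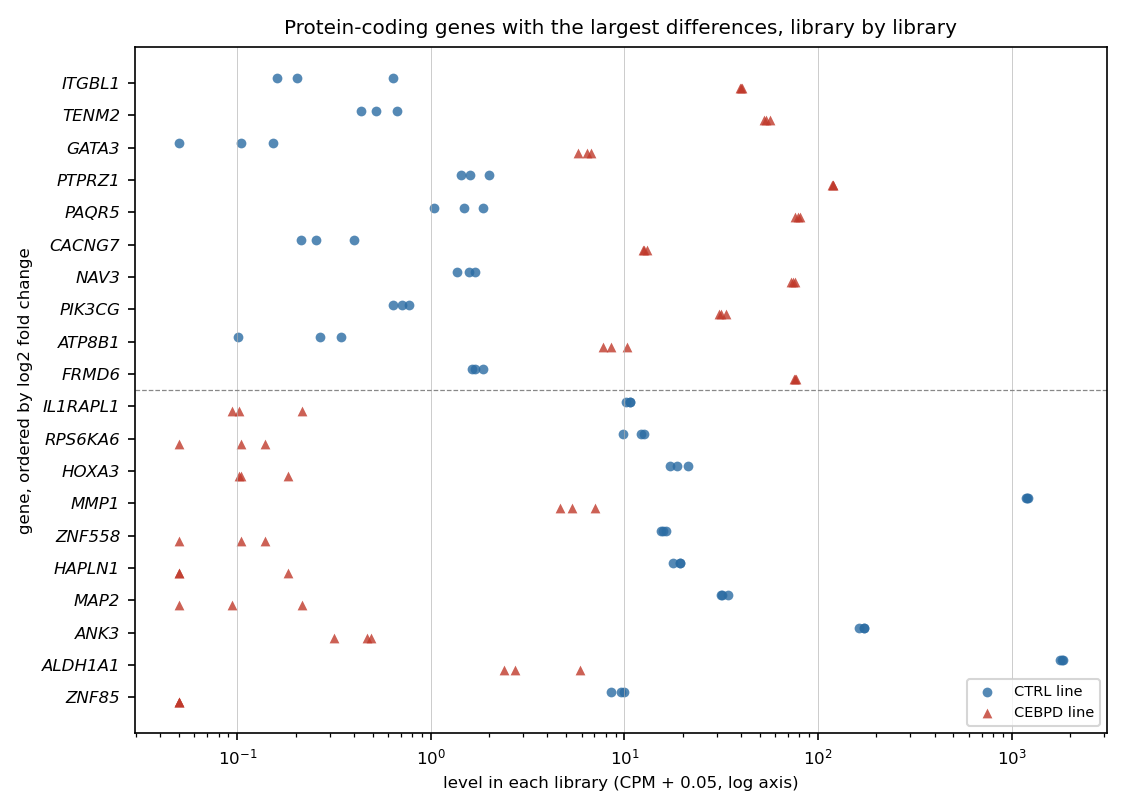
CPM plus 0.05 on a log axis is shown for each of the 6 libraries (points) and for the 10 protein-coding genes with the largest increase and the 10 with the largest decrease. Only genes with non-overlapping libraries could be chosen, so the points of both lines are apart for all 20 genes by that choice. In the C/EBPδ-inducible line, 7 of the 10 genes of the lower direction lay at the floor.

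Among genes with a mean of at least 100 CPM over the 6 libraries, the 5 largest increases were those of CDK6, AKR1C1, NAV1, JAG1 and NFKBIA, and the 5 largest decreases those of ALDH1A1, MMP1, HOXB9, RGS5 and KRT8. CDK6, a kinase that drives entry into S phase (ENSG00000105810, chromosome 7, 92604921 to 92836573), was at 24.6, 21.8 and 22.4 CPM in CTRL and 351, 364 and 348 CPM in C/EBPδ-inducible cells (log2 fold change 3.95 ± 0.043, adjusted p = 1.65e-22). NAV1, a neuron navigator that binds microtubules, was at 35.1, 37.2 and 38.3 CPM in CTRL and 314, 320.5 and 314 CPM in C/EBPδ-inducible cells (log2 fold change 3.10 ± 0.038, adjusted p = 8.40e-22). RGS5, a regulator of G protein signaling known as a marker of pericytes, was at 431, 363 and 379.9 CPM in CTRL and 14.6, 15.1 and 16 CPM in C/EBPδ-inducible cells (log2 fold change −4.68 ± 0.062, adjusted p = 2.49e-21). For these 3 genes the libraries of each line lay in a narrow range far from the other line. The others are described with their families. Exons of CDK6 and NAV1 overlap a gene on the other strand, which leaves their values uncertain.

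Among 6 genes tested that carry a C/EBP name or belong to the family, 5 had raised levels in the inducible line and 0 had reduced levels. Over all genes tested, 20.0% were higher. The 5 include CEBPD, whose cDNA the construct carries, CEBPZ, which is related by name only, and DDIT3, whose call was not stable. A shift of the family as a whole was not tested. Apart from CEBPD, CEBPB, a partner that activates the same acute-phase and adipogenic genes, was at 23.7, 20.5 and 23.8 CPM in CTRL and 34.2, 38.8 and 37.8 CPM in C/EBPδ-inducible cells (log2 fold change 0.70 ± 0.067, adjusted p = 3.00e-08). CEBPG, which lacks an activation domain and pairs with ATF4, was at 62.3, 60.0 and 59.7 CPM in CTRL and 96.2, 96.1 and 90.8 CPM in C/EBPδ-inducible cells (log2 fold change 0.64 ± 0.040, adjusted p = 6.74e-11). In both genes the lines did not overlap. CEBPZ, which shares only the name with the bZIP members, was at 185, 186 and 179.5 CPM in CTRL and 209, 201 and 214 CPM in C/EBPδ-inducible cells (log2 fold change 0.18 ± 0.033, adjusted p = 1.28e-04). DDIT3, which encodes CHOP, was at 4.77, 6.47 and 5.74 CPM in CTRL and 6.72, 8.17 and 7.57 CPM in C/EBPδ-inducible cells (log2 fold change 0.41 ± 0.12, adjusted p = 0.00848), and its call was lost with DESeq2 and without CTRL replicate 1 or 3 or C/EBPδ-inducible replicate 2 or 3. CEBPA was at 14.9, 13.8 and 14.1 CPM in CTRL and 14.7, 15.7 and 13.5 CPM in C/EBPδ-inducible cells (log2 fold change 0.04 ± 0.079, adjusted p = 0.693), with overlapping libraries, and CEBPE had 1 count in all. Exons of CEBPB, CEBPZ, DDIT3 and CEBPA overlap a gene on the other strand, which leaves their values uncertain.

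Targets of the stress factors ATF4 and CHOP, which control amino acid supply and redox defense when translation is checked, were higher in large number. Of 33 tested, 25 were higher and 3 lower, with a median log2 fold change of 0.47 against 0.01 for all genes. SLC7A11, the cystine carrier of the exchanger xCT, was at 11.7, 11.1 and 11.2 CPM in CTRL and 51.4, 48.7 and 50.4 CPM in C/EBPδ-inducible cells (log2 fold change 2.14 ± 0.059, adjusted p = 2.16e-16). VLDLR, a lipoprotein receptor, was at 2.85, 4.82 and 3.64 CPM in CTRL and 19.6, 19 and 17.1 CPM in C/EBPδ-inducible cells (log2 fold change 2.31 ± 0.12, adjusted p = 5.96e-12). GDF15, a stress cytokine of the TGF-β family, was at 0.658, 0.823 and 0.41 CPM in CTRL and 2.39, 2.75 and 2.74 CPM in C/EBPδ-inducible cells (log2 fold change 2.07 ± 0.26, adjusted p = 1.23e-06). No library of one line reached the other for these genes. The glutathione-degrading enzyme CHAC1 (log2 fold change 1.59 ± 0.14, adjusted p = 1.18e-08), asparagine synthetase ASNS (log2 fold change 0.89 ± 0.049, adjusted p = 1.05e-11), the serine synthesis enzyme PHGDH (log2 fold change 0.88 ± 0.043, adjusted p = 1.38e-12) and ATF4 itself (log2 fold change 0.47 ± 0.036, adjusted p = 1.46e-09) were higher as well. The lower members were the tryptophanyl-tRNA synthetase WARS1 (log2 fold change −1.48 ± 0.028, adjusted p = 4.66e-19), which interferon also induces, and the amino acid carriers SLC7A1 and SLC38A2 (log2 fold changes −0.38 and −0.21). The list holds CEBPD, CEBPB, CEBPG and DDIT3, which are also in the C/EBP family. The unfolded protein response, another branch of the same stress system that raises chaperones of the endoplasmic reticulum, had 5 of 25 genes higher and 8 lower, with upper-quartile scaling 9 and 7. PDIA6 and HSPA5 were lower (log2 fold changes −0.63 and −0.37) and HERPUD1 higher (0.46). HSPA5 lies on chromosome 9 and SLC7A1 on chromosome 13, in runs of lower windows given with the chromosomes. Such a remark is not made for every gene of these runs, here or elsewhere. Exons of VLDLR, SLC7A11 and PDIA6 overlap a gene on the other strand, which leaves their values uncertain.

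C/EBP dimers are known to bind TTGCGCAA, C/EBP pairs with other bZIP factors TTGCGTAA, and C/EBP pairs with ATF4 TTGCATCA. These words were searched on both strands in RefSeq promoters of build GRCh38.p14 that run from 250 bases before to 50 after the transcription start, a table in which 10173 of the 15317 genes tested had a promoter. TTGCGCAA was found in 9 of 3430 promoters of higher DEGs (0.262%), 9 of 4333 of lower DEGs (0.208%), 15 of 6926 of genes not past the threshold (0.217%) and 0.152% of all 34961 promoters. TTGCGTAA was found in 0.233% (8), 0.162% (7) and 0.173% (12) of these groups and in 0.163% of all. TTGCATCA was found in 30 promoters of higher DEGs (0.875%), 14 of lower DEGs (0.323%), 26 of genes not past the threshold (0.375%) and 0.864% of all. The share among higher DEGs lay near that of all promoters, which include those of genes not tested. It lay above the shares of lower DEGs and of genes not past the threshold, a difference that was not tested. In the list of ATF4 and CHOP targets, 3 of 27 genes with a promoter held TTGCATCA: CHAC1, CARS1 and CEBPG. The stretches that follow hold the word in capitals as read on the strand of the gene and were chosen to show matches in genes whose change is given here, CHAC1, CEBPG, HERPUD1, SMAD6 and GCLC in the higher and ITGB5 in the lower direction. A match is a description of the letters and was not tested as a binding site.
CHAC1 (chr15:40953246-40953285, plus strand): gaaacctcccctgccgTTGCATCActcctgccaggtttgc
CEBPG (chr19:33374055-33374094, plus strand): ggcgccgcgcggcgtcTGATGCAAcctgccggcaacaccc
HERPUD1 (chr16:56931950-56931989, plus strand): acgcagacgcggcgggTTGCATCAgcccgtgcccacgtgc
ITGB5 (chr3:124901586-124901625, minus strand): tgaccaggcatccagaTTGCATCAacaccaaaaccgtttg
SMAD6 (chr15:66702173-66702212, plus strand): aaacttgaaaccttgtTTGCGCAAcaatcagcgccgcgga
GCLC (chr6:53545273-53545312, minus strand): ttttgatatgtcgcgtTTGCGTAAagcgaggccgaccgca
Between the end of the word and the transcription start lay 201 bases in CHAC1, 34 in CEBPG, 168 in HERPUD1, 183 in ITGB5, 39 in SMAD6 and 187 in GCLC. CHAC1 was at 2.3 and 6.99 CPM, SMAD6, an inhibitor of BMP signaling, at 6.65 and 15.1 CPM, GCLC, which starts glutathione synthesis, at 33.9 and 39.3 CPM and the vitronectin receptor subunit ITGB5 at 29.6 and 14.5 CPM as means of the CTRL and the C/EBPδ-inducible libraries.

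HOX genes, the clustered homeobox factors that keep positional identity, separated the lines cluster by cluster. All 9 HOXB genes tested were lower in C/EBPδ-inducible cells, and the summed level of the HOXB cluster (chromosome 17, 48528526 to 48728750) was 654, 665 and 655 CPM in CTRL cells and 35.3, 40.8 and 37.2 CPM in C/EBPδ-inducible cells. HOXB9 was at 211, 222 and 215 CPM in CTRL and 1.93, 2.71 and 2.03 CPM in C/EBPδ-inducible cells (log2 fold change −6.58 ± 0.067, adjusted p = 5.01e-23) and HOXB8 at 154, 156 and 159 CPM in CTRL and 2.6, 2.75 and 2.96 CPM in C/EBPδ-inducible cells (log2 fold change −5.82 ± 0.059, adjusted p = 5.01e-23). From HOXB2 to HOXB8 the log2 fold changes ran between −5.82 and −1.99, and HOXB13, which lies apart at the end of the cluster, was at 7.9, 7.52 and 7.79 CPM in CTRL and 5.78, 5.78 and 5.65 CPM in C/EBPδ-inducible cells (log2 fold change −0.43 ± 0.10, adjusted p = 0.00145). In the HOXA cluster, the anterior genes were lower and a posterior gene higher. HOXA3 was at 21.2, 18.6 and 17.2 CPM in CTRL and 0.0521, 0.133 and 0.0549 CPM in C/EBPδ-inducible cells, which is at least 116-fold lower, and HOXA2 had 49, 47 and 57 counts against none and was at least 16.9-fold lower. HOXA13 was at 0.822, 0.588 and 0.666 CPM in CTRL and 2.03, 2.62 and 1.98 CPM in C/EBPδ-inducible cells (log2 fold change 1.67 ± 0.26, adjusted p = 1.76e-05), and HOXA11 did not pass the threshold (adjusted p = 0.0426). HOXA-AS2, an antisense RNA whose exons overlap HOXA3, was at 17.1, 17.8 and 16.1 CPM in CTRL and 0, 0.133 and 0 CPM in C/EBPδ-inducible cells, so its reads and those of HOXA3 cannot be told apart. HOXC6 and HOXC8, the only HOXC genes tested, did not pass the threshold, with 5.59, 4.94 and 5.07 CPM in CTRL and 4.48, 4.49 and 4.33 CPM in C/EBPδ-inducible cells for HOXC6, and no HOXD gene had enough counts to be tested.

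**Figure D3:**
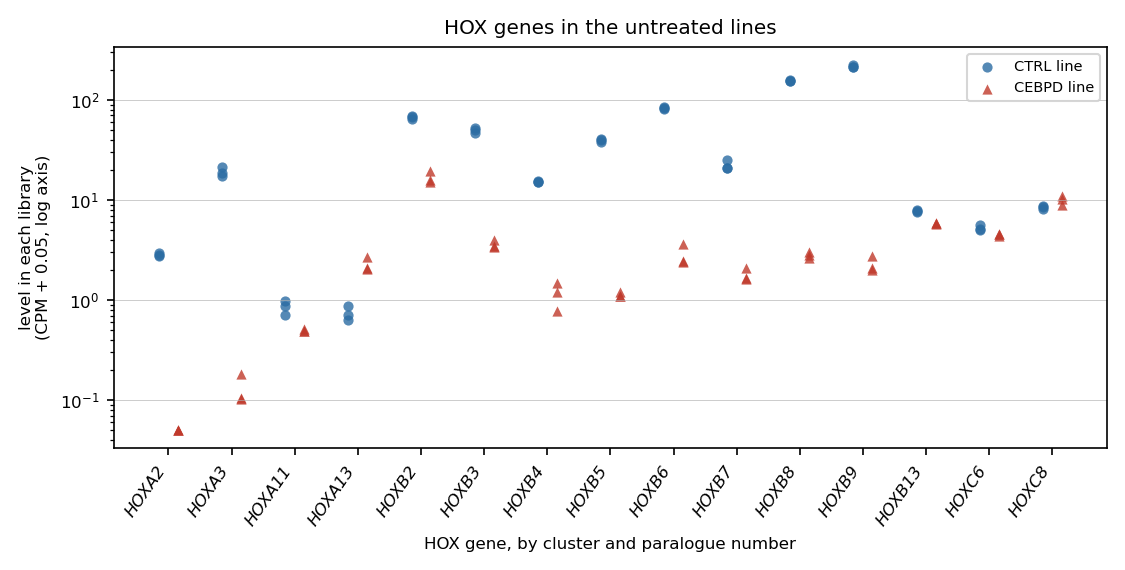
CPM plus 0.05 on a log axis is shown per library for 15 of the HOX genes tested, in their order along each cluster. The C/EBPδ-inducible libraries lie below the CTRL libraries for all 9 HOXB genes and for HOXA2 and HOXA3, above them for HOXA13, slightly below for HOXA11 and HOXC6, and slightly above for HOXC8, of which the last 3 did not pass the threshold.

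Zinc finger genes of chromosome 19, most of which encode KRAB repressors of transposable elements, were lower more often than higher. Of 182 tested, 78 were lower and 16 higher, with upper-quartile scaling 28 were higher and without CTRL replicate 3 10. When the genes were divided where neighbors lie over 3 Mb apart, the run from 19668796 to 24129968 held 16 lower and 0 higher of 18 tested, with a median log2 fold change of −1.77. The run from 7069703 to 14733746 held 16 lower and 1 higher of 28, and the run from 30224891 to 58481230 44 lower and 15 higher of 132. ZNF85 (ENSG00000105750, chromosome 19, 20923222 to 20950697) had 9.54, 8.52 and 9.89 CPM in CTRL and 0, 0 and 0 CPM in C/EBPδ-inducible cells. ZFP28 (ENSG00000196867, chromosome 19, 56538948 to 56556808) was at least 27.5-fold lower, at 4.55, 4.41 and 4.61 CPM in CTRL and 0, 0 and 0 CPM in C/EBPδ-inducible cells, and ZNF136 was at least 26.8-fold lower. No C/EBPδ-inducible library had a count of ZNF85 or ZFP28. Zinc finger genes on other chromosomes were less uneven, with 51 lower and 33 higher of 208, where the sign of the median changed with upper-quartile scaling. ZNF469 was at 0.11, 0.235 and 0.717 CPM in CTRL and 8.43, 8.48 and 8.17 CPM in C/EBPδ-inducible cells (log2 fold change 4.50 ± 0.25, adjusted p = 1.16e-11), or 5.56 without CTRL replicate 3, and ZNF239 was at least 11.3-fold lower. Members of these families are similar in sequence and can share reads, so single values are uncertain.

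Other transcription factor families moved in both directions. Immediate-early factors, which growth signals switch on within minutes, had 3 higher and 6 lower of 13. EGR1 was at 95.5, 101 and 100.2 CPM in CTRL and 28.1, 33.3 and 34.7 CPM in C/EBPδ-inducible cells (log2 fold change −1.63 ± 0.057, adjusted p = 8.60e-15), whereas JUN was at 100.2, 105 and 116 CPM in CTRL and 190.5, 212 and 207 CPM in C/EBPδ-inducible cells (log2 fold change 0.92 ± 0.049, adjusted p = 5.06e-12). FOS was lower and ATF3 higher (log2 fold changes −1.50 and 1.16). Among pancreatic and endodermal lineage factors, NR5A2, a nuclear receptor of acinar cells, was at 1.75, 1.47 and 1.28 CPM in CTRL and 0, 0.0888 and 0.0549 CPM in C/EBPδ-inducible cells and at least 9.12-fold lower, while GATA2 was higher (log2 fold change 0.64 ± 0.042, adjusted p = 1.49e-10). Krüppel-like factors had 5 higher and 4 lower of 11, with KLF2 and KLF9 lower (log2 fold changes −0.94 and −1.09) and KLF11 higher (0.85). SOX factors had 3 higher and 1 lower of 7, and the lower one was SOX9, a factor of duct cells, at 206, 182 and 194 CPM in CTRL and 99.6, 101 and 93.3 CPM in C/EBPδ-inducible cells (log2 fold change −0.99 ± 0.044, adjusted p = 3.88e-13).

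KRT8, KRT18 and KRT19, keratins of simple epithelium, were lower in C/EBPδ-inducible cells, while the hair keratins KRT81 and KRT86 were higher. KRT8 was at 1466, 1565 and 1559 CPM in CTRL and 70.1, 72.8 and 74.3 CPM in C/EBPδ-inducible cells (log2 fold change −4.40 ± 0.033, adjusted p = 9.69e-25), its partner KRT18 at 1106, 1154 and 1135 CPM in CTRL and 112, 111 and 108 CPM in C/EBPδ-inducible cells (log2 fold change −3.36 ± 0.028, adjusted p = 3.38e-24) and KRT19 at 176, 177 and 183 CPM in CTRL and 14.8, 16.9 and 15.4 CPM in C/EBPδ-inducible cells (log2 fold change −3.50 ± 0.047, adjusted p = 2.49e-21). Every CTRL library was several times above every C/EBPδ-inducible library for each of them. KRT81 was at 0.219, 0.411 and 0.307 CPM in CTRL and 8.59, 10.7 and 10.3 CPM in C/EBPδ-inducible cells (log2 fold change 4.96 ± 0.21, adjusted p = 2.11e-13), and it has near-identical relatives such as KRT86 (log2 fold change 2.57 ± 0.45, adjusted p = 7.90e-05), so their reads may be shared. In all, 4 keratins were lower and 3 higher of 10. Exons of KRT8 and KRT18 overlap on opposite strands in the annotation, so their reads are not fully separable.

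Most of the cell junction genes that differed were lower, while CLDN1 was far higher. Of 15 claudins and tight junction genes, 7 were lower and 2 higher. CLDN1, a claudin that seals the tight junction, was at 7.13, 6.7 and 7.27 CPM in CTRL and 91.9, 102 and 94.7 CPM in C/EBPδ-inducible cells (log2 fold change 3.77 ± 0.064, adjusted p = 9.34e-20), whereas occludin OCLN was at 25.8, 25.5 and 23.3 CPM in CTRL and 4.53, 5.64 and 4.88 CPM in C/EBPδ-inducible cells (log2 fold change −2.30 ± 0.091, adjusted p = 6.09e-14). CDH1, the E-cadherin of adherens junctions, was at 1.04, 1.47 and 0.563 CPM in CTRL and 0, 0.133 and 0.219 CPM in C/EBPδ-inducible cells (log2 fold change −3.04 ± 0.56, adjusted p = 1.26e-04), with C/EBPδ-inducible libraries at or near the floor, and its estimate was −3.71 without C/EBPδ-inducible replicate 3. CDH5, a cadherin of endothelium, was at 0.0548, 0.0588 and 0.41 CPM in CTRL and 1.35, 1.02 and 1.65 CPM in C/EBPδ-inducible cells (log2 fold change 2.82 ± 0.47, adjusted p = 4.60e-05), or 4.39 without CTRL replicate 3. Desmosome genes had 3 lower and 0 higher of 8, led by plakoglobin JUP and desmoplakin DSP (log2 fold changes −0.60 and −0.53). In the model of all 24 libraries 1 was lower, and JUP was not called there and without CTRL replicate 2 or C/EBPδ-inducible replicate 2. Clustered protocadherins, adhesion molecules of neurons, had 7 lower and 0 higher of 15, and as their genes share exons the single members are uncertain. Exons of CDH1 and DSP overlap a gene on the other strand, which leaves their values uncertain.

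The study followed a panel of known epithelial and mesenchymal markers. Of its 14 genes tested, 3 were higher and 7 lower, and with upper-quartile scaling 4 and 6. SNAI2, a repressor of E-cadherin, was at 0.0548, 0.235 and 0.359 CPM in CTRL and 2.66, 2.8 and 2.14 CPM in C/EBPδ-inducible cells (log2 fold change 3.50 ± 0.36, adjusted p = 8.47e-08), or 4.10 without CTRL replicate 3. ZEB1, another such repressor, was at 96, 96.1 and 90.2 CPM in CTRL and 172, 172 and 171 CPM in C/EBPδ-inducible cells (log2 fold change 0.87 ± 0.035, adjusted p = 7.41e-14), and LAMB1, a laminin chain, at 12.3, 14.4 and 14.1 CPM in CTRL and 50.6, 47.4 and 44.2 CPM in C/EBPδ-inducible cells (log2 fold change 1.80 ± 0.070, adjusted p = 3.69e-14). These were the higher ones, and no library of one line overlapped the other. The lower ones held genes known as epithelial, CDH1, MUC1 (log2 fold change −1.05 ± 0.15, adjusted p = 6.87e-06) and SDC1 (log2 fold change −0.85 ± 0.045, adjusted p = 6.12e-12), the syndecan read here for an entry that the study spells SCD1, and genes known as mesenchymal, VIM (log2 fold change −0.26 ± 0.016, adjusted p = 7.56e-11), ACTA2 (log2 fold change −1.08 ± 0.19, adjusted p = 9.33e-05) and S100A4 (log2 fold change −0.49 ± 0.037, adjusted p = 1.11e-09). The seventh, GSK3B (log2 fold change −0.14 ± 0.035, adjusted p = 0.00198), was not called with upper-quartile scaling, in the model of all 24 libraries or without C/EBPδ-inducible replicate 3. Exons of SNAI2, ZEB1, LAMB1, ACTA2, VIM and GSK3B overlap a gene on the other strand, which leaves their values uncertain.

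The 7 migration genes on which the study followed up were chosen on samples of this series and are no independent evidence of a direction. All 7 differed between the untreated lines, 5 higher and 2 lower in the inducible line, where 43.9% of all genes tested differed. In the highest tertile of mean CPM that share was 60.6%. With a threshold of 2-fold, the balance of the 7 genes turned to 1 higher and 2 lower. ETS1, a transcription factor of invasive cells, was at 58.6, 60.0 and 58.2 CPM in CTRL and 168, 178 and 172 CPM in C/EBPδ-inducible cells (log2 fold change 1.55 ± 0.037, adjusted p = 1.70e-17). MYPN, a sarcomere protein that binds actin, was at 53.2, 56.3 and 57 CPM in CTRL and 102, 104 and 115 CPM in C/EBPδ-inducible cells (log2 fold change 0.94 ± 0.047, adjusted p = 2.09e-12). AXL, a receptor tyrosine kinase for GAS6, was at 155, 147 and 151 CPM in CTRL and 228, 241 and 228 CPM in C/EBPδ-inducible cells (log2 fold change 0.62 ± 0.034, adjusted p = 7.70e-12), and EGFR, the epidermal growth factor receptor, at 166, 172 and 169 CPM in CTRL and 247, 250.0 and 246 CPM in C/EBPδ-inducible cells (log2 fold change 0.55 ± 0.030, adjusted p = 9.65e-12). Every C/EBPδ-inducible library exceeded every CTRL library for these and for NET1, an exchange factor of RhoA whose change was small (log2 fold change 0.15 ± 0.026, adjusted p = 9.55e-05). GSN, which severs actin filaments, was at 151, 150.5 and 144 CPM in CTRL and 50.2, 48 and 49.2 CPM in C/EBPδ-inducible cells (log2 fold change −1.60 ± 0.037, adjusted p = 1.44e-17). It lies on chromosome 9, in a run of lower windows with a median of −0.485. ITGB4, the integrin subunit of hemidesmosomes, was at 112, 110.2 and 109 CPM in CTRL and 49.5, 49.1 and 47.4 CPM in C/EBPδ-inducible cells (log2 fold change −1.18 ± 0.038, adjusted p = 2.24e-15). Exons of AXL, EGFR and GSN overlap a gene on the other strand, which leaves their values uncertain.

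Regulators of the actin skeleton differed in both directions with large changes in single genes. Of 87 positive regulators of actin filaments in a list that the study drew from Gene Ontology terms, 27 were higher and 34 lower, or 32 and 30 with upper-quartile scaling. ARHGAP29, which inactivates RhoA, was at 8.06, 7.99 and 7.17 CPM in CTRL and 160.5, 163 and 161 CPM in C/EBPδ-inducible cells (log2 fold change 4.38 ± 0.050, adjusted p = 3.09e-22), whereas ARHGAP5, which encodes p190-B RhoGAP, was at 872, 747 and 786 CPM in CTRL and 88.6, 93.1 and 95.4 CPM in C/EBPδ-inducible cells (log2 fold change −3.12 ± 0.046, adjusted p = 1.14e-20). The lines were far apart in each library for both. RAC2, the Rac isoform of blood cells, was at 0.932, 0.705 and 0.768 CPM in CTRL and 7.13, 6.57 and 7.96 CPM in C/EBPδ-inducible cells (log2 fold change 3.15 ± 0.18, adjusted p = 1.62e-11), and RND3, which opposes RhoA, at 0.932, 0.882 and 2.41 CPM in CTRL and 0.26, 0.0444 and 0.165 CPM in C/EBPδ-inducible cells (log2 fold change −3.19 ± 0.54, adjusted p = 4.67e-05), or −2.55 without CTRL replicate 3. RHOA and CDC42 did not pass the threshold (log2 fold changes −0.03 and −0.06). RhoGAPs had 4 higher and 8 lower of 21, and RhoGEFs 7 and 7 of 19. Actins, myosins and tropomyosins had 7 higher and 13 lower of 27, with the motor proteins MYH10 and MYO6 lower (log2 fold changes −1.13 and −1.37) and TPM1 higher (1.11). The ARP2/3 complex, which branches actin, had 2 higher and 5 lower of 10. Its subunit ARPC5 was at 88.2, 74.5 and 79.1 CPM in CTRL and 152, 159.5 and 154 CPM in C/EBPδ-inducible cells (log2 fold change 0.94 ± 0.047, adjusted p = 2.01e-12), while ARPC5L and ARPC4 were lower (−0.53 and −0.48). ARPC5L lies on chromosome 9, in a run of lower windows with a median of −0.485. In the gelsolin family, SVIL was higher and CAPG lower (log2 fold changes 1.05 and −0.88). Exons of ARHGAP5, MYH10, TPM1, ARPC5L, ARPC4 and SVIL overlap a gene on the other strand, which leaves their values uncertain.

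Guidance cues, which steer axons and migrating cells, included some of the larger changes of the motility genes. Of 21 semaphorins, plexins and neuropilins, 8 were higher and 6 lower. The ligand SEMA3A was at 350.3, 337 and 316 CPM in CTRL and 101, 104 and 101 CPM in C/EBPδ-inducible cells (log2 fold change −1.71 ± 0.038, adjusted p = 5.12e-18) and SEMA6B at 139.5, 140.4 and 148 CPM in CTRL and 8.43, 10.1 and 10.4 CPM in C/EBPδ-inducible cells (log2 fold change −3.88 ± 0.058, adjusted p = 1.14e-20). The receptor PLXNA2 was at 0.768, 1.06 and 1.54 CPM in CTRL and 15.5, 16.9 and 16.3 CPM in C/EBPδ-inducible cells (log2 fold change 3.84 ± 0.15, adjusted p = 3.47e-14). Ligands SEMA3A, SEMA6B and SEMA3D were thus low and this receptor high in every C/EBPδ-inducible library. Ephrins and Eph receptors had 5 higher and 5 lower of 16, with EPHA8 at 1.21, 1.06 and 0.973 CPM in CTRL and 3.59, 3.55 and 4.72 CPM in C/EBPδ-inducible cells (log2 fold change 1.86 ± 0.21, adjusted p = 2.55e-07).

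Of 14 integrins, receptors for the matrix and for other cells, 5 were higher and 5 lower, and 6 and 5 with upper-quartile scaling. ITGA3 and ITGA6, α chains that bind laminins, were lower, as was ITGB4, a β partner of ITGA6 but not of ITGA3. ITGA3 was at 185, 193 and 193 CPM in CTRL and 33, 35.4 and 34 CPM in C/EBPδ-inducible cells (log2 fold change −2.48 ± 0.039, adjusted p = 3.09e-20). ITGA6 had a log2 fold change of −1.25. ITGB8, which activates TGF-β, was at 28.7, 23.5 and 26.1 CPM in CTRL and 2.45, 2.58 and 2.69 CPM in C/EBPδ-inducible cells (log2 fold change −3.34 ± 0.11, adjusted p = 2.39e-15). In the higher direction, ITGA5, ITGB1 and ITGAV, which make up receptors for fibronectin and vitronectin, changed little (0.37, 0.34 and 0.31). The leukocyte chains ITGAM and ITGB2 were higher (log2 fold change 2.64 ± 0.36, adjusted p = 4.62e-06 and log2 fold change 2.55 ± 0.42, adjusted p = 4.14e-05) but did not exceed 2.08 CPM, and ITGB2 moved to 3.57 without CTRL replicate 3. Collagens had 9 higher and 4 lower of 17. COL6A3 was at 90.1, 93.4 and 90.9 CPM in CTRL and 276, 276 and 284 CPM in C/EBPδ-inducible cells (log2 fold change 1.61 ± 0.033, adjusted p = 1.71e-18), whereas COL1A2, a chain of type I collagen, was at 619, 628 and 654 CPM in CTRL and 237, 245 and 231 CPM in C/EBPδ-inducible cells (log2 fold change −1.41 ± 0.030, adjusted p = 2.69e-18). Exons of ITGB8 and ITGB2 overlap a gene on the other strand, which leaves their values uncertain.

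Matrix proteases and their inhibitors had members in both directions. Metalloproteinases and TIMPs had 5 lower and 2 higher of 10. Beside MMP1, stromelysin MMP10 was at 5.15, 4.94 and 4.71 CPM in CTRL and 0.521, 0.533 and 0.549 CPM in C/EBPδ-inducible cells (log2 fold change −3.19 ± 0.20, adjusted p = 1.02e-10), and the inhibitors TIMP1 and TIMP2 were lower (log2 fold changes −0.97 and −0.86). MMP14, which activates MMP2 at the membrane, did not pass the threshold (0.24), and MMP2 had no counts apart from 7 in C/EBPδ-inducible replicate 3. ADAM and ADAMTS proteases had 7 lower and 5 higher of 20 (1 and 2 with a threshold of 2-fold), with ADAM23 at 0.329, 0.118 and 0.512 CPM in CTRL and 6.92, 7.73 and 8.01 CPM in C/EBPδ-inducible cells (log2 fold change 4.50 ± 0.24, adjusted p = 5.05e-12). Among secreted protease inhibitors and receptors of the coagulation system, SERPINE2 was at 55.7, 53.5 and 53 CPM in CTRL and 0.937, 1.78 and 1.1 CPM in C/EBPδ-inducible cells (log2 fold change −5.37 ± 0.11, adjusted p = 1.42e-18). The protease-activated receptors went opposite ways, F2RL1 at 88, 90.4 and 85.3 CPM in CTRL and 6.14, 6.13 and 6.97 CPM in C/EBPδ-inducible cells (log2 fold change −3.78 ± 0.061, adjusted p = 4.42e-20) and F2RL2 at 1.64, 1.53 and 1.08 CPM in CTRL and 29.6, 29.9 and 29 CPM in C/EBPδ-inducible cells (log2 fold change 4.38 ± 0.11, adjusted p = 5.18e-17). That list of complement and coagulation genes had 10 lower and 6 higher of 21. Laminins had 3 higher and 2 lower of 8, syndecans and glypicans 1 and 2 of 4, with SDC4 lower (log2 fold change −0.98 ± 0.033, adjusted p = 5.36e-15). Exons of F2RL1 and F2RL2 overlap a gene on the other strand, which leaves their values uncertain.

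Other surface and calcium-binding families also had members in both directions. Galectins and annexins had 6 lower and 2 higher of 10. Among them, ANXA1 begins the run of lower windows on chromosome 9 that is given with the chromosomes. LGALS3, galectin 3, was at 117, 111 and 110.2 CPM in CTRL and 20.1, 17.5 and 17.4 CPM in C/EBPδ-inducible cells (log2 fold change −2.62 ± 0.053, adjusted p = 1.72e-18), ANXA1 at 1209, 1263 and 1233 CPM in CTRL and 572, 558 and 567 CPM in C/EBPδ-inducible cells (log2 fold change −1.13 ± 0.024, adjusted p = 2.52e-18) and ANXA2 at 745, 777 and 775 CPM in CTRL and 1230.2, 1230.4 and 1226 CPM in C/EBPδ-inducible cells (log2 fold change 0.68 ± 0.023, adjusted p = 3.65e-15). S100 proteins had 6 lower and 3 higher of 11, which turned to 2 and 3 with the analysis of variance and to 1 and 2 with a threshold of 2-fold, and S100A16 was at 7.51, 7.35 and 8.45 CPM in CTRL and 40.5, 42.2 and 39 CPM in C/EBPδ-inducible cells (log2 fold change 2.38 ± 0.071, adjusted p = 7.03e-16). Tetraspanins and the L6 family had 8 lower and 4 higher of 20, which turned to 3 and 4 and to 1 and 2 with these alternatives, with TM4SF18 lower (log2 fold change −1.64 ± 0.055, adjusted p = 3.89e-15).

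Growth factors and their receptors differed in both directions. Of 10 ERBB receptors and ligands tested, 4 were higher and 6 lower. Beside EGFR, its ligand AREG was at 70.9, 70.2 and 70.5 CPM in CTRL and 23.1, 24.7 and 24.4 CPM in C/EBPδ-inducible cells (log2 fold change −1.55 ± 0.047, adjusted p = 9.08e-16) and BTC at 8.83, 6.7 and 7.22 CPM in CTRL and 2.45, 2.49 and 2.52 CPM in C/EBPδ-inducible cells (log2 fold change −1.61 ± 0.14, adjusted p = 1.10e-08), both low in all C/EBPδ-inducible libraries. The neuregulins NRG1 and NRG2 were higher (log2 fold changes 2.35 and 2.54). In the TAM family, AXL and its ligand GAS6 (log2 fold change 1.39 ± 0.11, adjusted p = 2.17e-09) were higher, and MERTK and the ligand PROS1 lower (−0.68 and −1.49). Among fibroblast growth factors and their receptors, 4 were higher and 1 lower of 9, with 0 lower without CTRL replicate 1 or 3 or C/EBPδ-inducible replicate 3. FGF2 was at 41.5, 33.4 and 38.1 CPM in CTRL and 129.5, 147 and 139 CPM in C/EBPδ-inducible cells (log2 fold change 1.88 ± 0.058, adjusted p = 1.29e-15) and FGFR1 at 19.8, 21.1 and 18 CPM in CTRL and 59.7, 60.0 and 61.1 CPM in C/EBPδ-inducible cells (log2 fold change 1.62 ± 0.056, adjusted p = 7.15e-15). Feedback genes of the ERK cascade, which growth factors induce, had 11 lower and 4 higher of 22, the higher ones led by the phosphatases DUSP5, DUSP7 and DUSP1 (log2 fold changes 0.92, 0.82 and 0.82). Angiogenic factors had 5 lower and 2 higher of 10, with 1 higher when any library but CTRL replicate 2 was left out and 3 lower without C/EBPδ-inducible replicate 1 or 3. VEGFA was at 48.8, 54.8 and 52 CPM in CTRL and 102, 102 and 105 CPM in C/EBPδ-inducible cells (log2 fold change 0.99 ± 0.043, adjusted p = 2.52e-13). Exons of FGF2, FGFR1, VEGFA and GAS6 overlap a gene on the other strand, which leaves their values uncertain.

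The TGF-β and BMP pathway, in which SMAD proteins carry the signal to the nucleus, was higher in 21 and lower in 9 of 43 genes. The ligand TGFB1 was at 18.5, 21.3 and 22.5 CPM in CTRL and 86.5, 88.3 and 83 CPM in C/EBPδ-inducible cells (log2 fold change 2.05 ± 0.058, adjusted p = 2.85e-16) and INHBE, an activin chain that stress also induces, at 0.329, 0.588 and 0.461 CPM in CTRL and 14.1, 12.9 and 12.8 CPM in C/EBPδ-inducible cells (log2 fold change 4.84 ± 0.17, adjusted p = 8.83e-15). The inhibitory SMAD7 was at 0.713, 0.705 and 0.41 CPM in CTRL and 4.11, 4.62 and 4.66 CPM in C/EBPδ-inducible cells (log2 fold change 2.88 ± 0.22, adjusted p = 1.55e-09), and SMAD6 was higher as well (log2 fold change 1.18 ± 0.087, adjusted p = 8.70e-10). These were high in each C/EBPδ-inducible library, while the receptor TGFBR1 and the signal carriers SMAD2 and SMAD4 were lower (log2 fold changes −0.81, −0.52 and −0.51). TGFBR1 lies on chromosome 9 and both SMAD genes on chromosome 18, in runs of lower windows given with the chromosomes. NOG, which sequesters BMPs, was at 16.9, 13.8 and 15.9 CPM in CTRL and 2.24, 2.35 and 2.74 CPM in C/EBPδ-inducible cells (log2 fold change −2.67 ± 0.12, adjusted p = 5.36e-13). Exons of TGFB1 and INHBE overlap a gene on the other strand, which leaves their values uncertain.

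WNT, Notch and Hedgehog genes had no common direction. WNT genes had 7 higher and 7 lower of 28, with 4 higher by DESeq2 or without CTRL replicate 3. TCF7, a factor that binds β-catenin, was at 160.2, 161 and 156 CPM in CTRL and 8.17, 8.88 and 8.61 CPM in C/EBPδ-inducible cells (log2 fold change −4.21 ± 0.049, adjusted p = 3.23e-22). Notch genes had 5 higher and 7 lower of 21, or 7 and 5 with upper-quartile scaling. The ligand JAG1 was at 73.5, 70.9 and 71.4 CPM in CTRL and 374, 376 and 371 CPM in C/EBPδ-inducible cells (log2 fold change 2.38 ± 0.032, adjusted p = 2.65e-21) and JAG2 at 59.5, 57.8 and 58.9 CPM in CTRL and 23.4, 24.3 and 24.1 CPM in C/EBPδ-inducible cells (log2 fold change −1.29 ± 0.048, adjusted p = 2.33e-14), and the target HES1 was higher (log2 fold change 1.61 ± 0.14, adjusted p = 5.59e-09). In the Hedgehog pathway, with 4 higher and 3 lower of 10, the ligand SHH (log2 fold change 1.22 ± 0.083, adjusted p = 2.41e-10) and the effector GLI1 (log2 fold change 3.39 ± 0.22, adjusted p = 1.32e-10) were higher and the receptor PTCH1 (log2 fold change −1.04 ± 0.094, adjusted p = 1.47e-08) and the transducer SMO (log2 fold change −1.01 ± 0.071, adjusted p = 3.67e-10) lower. Targets of the Hippo pathway effector YAP had 8 higher and 8 lower of 25, with CCN1 at 146, 148 and 158 CPM in CTRL and 397, 400.3 and 401 CPM in C/EBPδ-inducible cells (log2 fold change 1.41 ± 0.032, adjusted p = 9.51e-18) and NT5E, which makes adenosine, at 717, 689 and 696 CPM in CTRL and 301, 303 and 306 CPM in C/EBPδ-inducible cells (log2 fold change −1.21 ± 0.026, adjusted p = 3.19e-18). Exons of JAG1, TCF7, GLI1, PTCH1 and SMO overlap a gene on the other strand, which leaves their values uncertain.

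Redox and aldehyde metabolism held some of the widest differences between the lines. AKR1C2 and AKR1C1, reductases of steroids and aldehydes that the factor NRF2 induces, were at 4.72, 5.41 and 6.71 CPM in CTRL and 173, 162 and 179 CPM in C/EBPδ-inducible cells (log2 fold change 4.92 ± 0.071, adjusted p = 6.46e-21) and at 50.8, 57.1 and 54.7 CPM in CTRL and 602, 565 and 634 CPM in C/EBPδ-inducible cells (log2 fold change 3.47 ± 0.045, adjusted p = 2.01e-21). They are near-identical in sequence and may share reads. Their list had 13 higher and 6 lower of 26, but the NRF2 target NQO1 and the ferritin chain FTH1 were lower (−0.64 and −1.11). Aldehyde dehydrogenases had 6 higher and 6 lower of 15, with ALDH3A1 at 0.274, 0.411 and 0.461 CPM in CTRL and 4.63, 4.53 and 4.61 CPM in C/EBPδ-inducible cells (log2 fold change 3.56 ± 0.23, adjusted p = 1.35e-10). In retinoic acid metabolism, where ALDH1A1 makes the acid and CYP26B1 degrades it, CYP26B1 was at 0.274, 0.353 and 0.256 CPM in CTRL and 6.51, 7.55 and 6.91 CPM in C/EBPδ-inducible cells (log2 fold change 4.55 ± 0.22, adjusted p = 1.16e-12) and the retinal reductase DHRS3 at 14.4, 13.9 and 11.9 CPM in CTRL and 2.24, 3.2 and 2.58 CPM in C/EBPδ-inducible cells (log2 fold change −2.31 ± 0.13, adjusted p = 1.33e-11). Glutathione S-transferases had 7 lower and 1 higher of 13. The higher one, GSTM2, was not called by DESeq2 or without CTRL replicate 1 or 3 or C/EBPδ-inducible replicate 2 or 3. MGST1 was at 17.5, 16.8 and 14.9 CPM in CTRL and 0.416, 0.267 and 0.0549 CPM in C/EBPδ-inducible cells (log2 fold change −5.99 ± 0.21, adjusted p = 8.52e-15). Metallothioneins and zinc carriers had 8 higher and 7 lower of 24, and the carrier SLC39A8 was at 214, 187 and 192 CPM in CTRL and 48.6, 50.5 and 49.9 CPM in C/EBPδ-inducible cells (log2 fold change −1.99 ± 0.047, adjusted p = 1.44e-17). Exons of ALDH3A1 and FTH1 overlap a gene on the other strand, which leaves their values uncertain.

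Genes of central metabolism were called in both directions. Glycolytic genes had 9 higher and 8 lower of 21, with the glucose carrier SLC2A3 at 148, 143 and 142 CPM in CTRL and 52.8, 52.7 and 56.9 CPM in C/EBPδ-inducible cells (log2 fold change −1.42 ± 0.039, adjusted p = 2.03e-16) and ALDOC at 3.51, 4.41 and 4.46 CPM in CTRL and 10.8, 10.5 and 11.2 CPM in C/EBPδ-inducible cells (log2 fold change 1.39 ± 0.11, adjusted p = 2.78e-09). Hypoxia response genes had 8 higher and 5 lower of 20. EPAS1, which encodes HIF-2α, was at 1.32, 1.41 and 6.66 CPM in CTRL and 8.69, 9.02 and 9.6 CPM in C/EBPδ-inducible cells (log2 fold change 1.49 ± 0.31, adjusted p = 4.51e-04), where CTRL replicate 3 stood apart from the other CTRL libraries, so that the estimate was 2.73 without it, and DESeq2 did not call the gene. Fatty acid synthesis genes had 7 higher and 5 lower of 18, with the elongase ELOVL6 at 2.03, 1.65 and 1.74 CPM in CTRL and 13.7, 13.8 and 13.2 CPM in C/EBPδ-inducible cells (log2 fold change 2.91 ± 0.12, adjusted p = 1.21e-13) and the desaturase FADS1 at 22.5, 25.9 and 24.2 CPM in CTRL and 65.2, 62.2 and 60.2 CPM in C/EBPδ-inducible cells (log2 fold change 1.37 ± 0.055, adjusted p = 7.29e-14). Cholesterol synthesis genes had 8 lower and 3 higher of 24, a called share of 45.8%, near the 43.9% of all genes tested. The higher ones were 5 under upper-quartile scaling and 0 without CTRL replicate 3. By DESeq2 or without CTRL replicate 1 or any C/EBPδ-inducible replicate, 1 was higher. FABP5, a fatty acid carrier with many processed copies, was the only one of its family tested and was at 1.37, 1.53 and 1.69 CPM in CTRL and 0, 0 and 0 CPM in C/EBPδ-inducible cells, at least 9.29-fold lower. Amino acid carriers had 8 higher and 5 lower of 19, and iron genes 3 and 3 of 15, with 5 lower without CTRL replicate 1. Heat shock proteins had 5 higher and 7 lower of 22, with 10 higher under upper-quartile scaling and 3 higher without CTRL replicate 2 or 3 or C/EBPδ-inducible replicate 1 or 3. Exons of ALDOC, ELOVL6, FADS1 and FABP5 overlap a gene on the other strand, which leaves their values uncertain.

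Counts of respiratory chain and ribosomal genes in either direction depended on the scaling. Of 78 nuclear-encoded respiratory chain genes, 32 were lower and 6 higher, with a median of −0.08, and with upper-quartile scaling 21 and 16. Of 13 genes of the mitochondrial genome, 11 were lower, with upper-quartile scaling 7 and in the model of all 24 libraries 3. MT-ND5 was at 3152, 3349 and 3226 CPM in CTRL and 2817, 2824 and 2682 CPM in C/EBPδ-inducible cells (log2 fold change −0.22 ± 0.024, adjusted p = 1.19e-07) and ATP5F1A, a subunit of ATP synthase, at 763, 772 and 757 CPM in CTRL and 484, 478 and 485 CPM in C/EBPδ-inducible cells (log2 fold change −0.66 ± 0.023, adjusted p = 8.01e-15). Cytosolic ribosomal proteins had 24 lower and 7 higher of 81, a balance that turned to 13 and 16 with upper-quartile scaling. The higher ones were 2 without CTRL replicate 3 or C/EBPδ-inducible replicate 3 and 3 without C/EBPδ-inducible replicate 1. Mitochondrial ribosomal proteins had 18 lower and 16 higher of 78, which likewise turned to 16 and 29, and 10 were higher without CTRL replicate 3 or C/EBPδ-inducible replicate 1. RPL7A (log2 fold change −0.65 ± 0.025, adjusted p = 3.38e-14) and RPL35 (log2 fold change −0.60 ± 0.030, adjusted p = 1.74e-12) lie on chromosome 9 and RPL17 (log2 fold change −0.57 ± 0.073, adjusted p = 1.82e-06) and ATP5F1A on chromosome 18, in windows that were lower as a whole. Exons of RPL35 overlap a gene on the other strand, which leaves its value uncertain.

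Genes of cell division were called in both directions, and a split by phase was not tested. Genes of the G1/S transition and of DNA replication had 24 higher and 8 lower of 44, with a median log2 fold change of 0.154. Genes of G2 and mitosis had 6 higher and 17 lower of 40, or 10 and 14 with upper-quartile scaling, with a median of −0.079. The called shares were 72.7% and 57.5%, against 43.9% of all genes tested and 60.6% in the highest tertile of mean CPM. E2F2, an activating E2F factor, was at 28.3, 28.6 and 28.4 CPM in CTRL and 64.7, 63.7 and 64.6 CPM in C/EBPδ-inducible cells (log2 fold change 1.18 ± 0.045, adjusted p = 3.60e-14) and cyclin E1 CCNE1 at 33.3, 36.7 and 40.1 CPM in CTRL and 53.7, 54 and 57.3 CPM in C/EBPδ-inducible cells (log2 fold change 0.58 ± 0.058, adjusted p = 5.76e-08). CKAP2, a spindle protein, was at 396, 377 and 387 CPM in CTRL and 214, 218 and 208 CPM in C/EBPδ-inducible cells (log2 fold change −0.86 ± 0.030, adjusted p = 7.69e-15) and the spindle assembly factor TPX2 at 662, 694 and 671 CPM in CTRL and 472, 469 and 476 CPM in C/EBPδ-inducible cells (log2 fold change −0.52 ± 0.025, adjusted p = 1.51e-12). CKAP2 lies on chromosome 13 and TPX2 on chromosome 20, in runs of lower windows given with the chromosomes, with medians of −0.39 and −0.52. Replication-dependent histone genes, which are transcribed in S phase and mostly lie in a cluster on chromosome 6, had 40 higher and 0 lower of 51, or 24 higher in the model of all 24 libraries. H2BC8 was at 36.8, 39.8 and 38.6 CPM in CTRL and 110.5, 109 and 121 CPM in C/EBPδ-inducible cells (log2 fold change 1.56 ± 0.047, adjusted p = 8.26e-16) and H2AC8 at 74.5, 80.2 and 69.4 CPM in CTRL and 177, 169 and 178 CPM in C/EBPδ-inducible cells (log2 fold change 1.23 ± 0.044, adjusted p = 1.10e-14), with reads that near-identical histone genes may share. Among CDK inhibitors, CDKN1A, which encodes p21, was at 5.26, 4.82 and 4.87 CPM in CTRL and 13.4, 14.4 and 13.7 CPM in C/EBPδ-inducible cells (log2 fold change 1.48 ± 0.095, adjusted p = 1.06e-10), while CDKN2C and CDKN3 were lower (−0.52 and −0.40). Targets of p53, which is mutated in this cell line, had 9 higher and 6 lower of 24, with the stress gene GADD45A at 11.1, 11.9 and 11.2 CPM in CTRL and 72.9, 77.7 and 79.2 CPM in C/EBPδ-inducible cells (log2 fold change 2.75 ± 0.058, adjusted p = 2.70e-18). Exons of CDKN1A overlap a gene on the other strand, which leaves its value uncertain.

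Inflammatory and interferon genes included several that were near silent in CTRL cells. Interferon-stimulated genes had 13 higher and 10 lower of 32. Their median log2 fold change was 0.093, and −0.134 without CTRL replicate 1. The summed level of the list was lower, from 517.8 to 519.1 CPM in CTRL and from 327.5 to 342.5 CPM in C/EBPδ-inducible cells. The 3 members named next were among the higher ones. OASL was at 0.439, 0.353 and 0.307 CPM in CTRL and 6.04, 6.75 and 8.45 CPM in C/EBPδ-inducible cells (log2 fold change 4.25 ± 0.24, adjusted p = 1.13e-11), SAMD9 at 0.11, 0.588 and 0.307 CPM in CTRL and 5.26, 4.4 and 5.43 CPM in C/EBPδ-inducible cells (log2 fold change 3.90 ± 0.28, adjusted p = 6.50e-10) and ISG15 at 0.274, 1.12 and 0.768 CPM in CTRL and 4.16, 4.66 and 4.83 CPM in C/EBPδ-inducible cells (log2 fold change 2.67 ± 0.26, adjusted p = 3.57e-08). For each, the C/EBPδ-inducible libraries were above all CTRL libraries, and SAMD9 moved to 4.52 without CTRL replicate 2. Chemokines and interleukins had 9 higher and 4 lower of 16. CCL5, which attracts T cells, was at 0, 0 and 0.0512 CPM in CTRL and 2.24, 2.13 and 1.81 CPM in C/EBPδ-inducible cells and at least 11.7-fold higher, CXCL8 was higher (log2 fold change 1.29 ± 0.038, adjusted p = 5.87e-16), and the cytokines CSF3 (log2 fold change −3.50 ± 0.21, adjusted p = 4.05e-11) and TNFSF4 (log2 fold change −3.88 ± 0.20, adjusted p = 3.60e-12) were lower. Acute-phase and C/EBP-linked inflammatory genes had 6 higher and 2 lower of 11 tested, with 22 members untested. The called share was 72.7%, against 43.9% of all genes tested. SERPINA1, which encodes α1-antitrypsin, was at 0.822, 9.58 and 1.13 CPM in CTRL and 47.6, 46.2 and 45.5 CPM in C/EBPδ-inducible cells (log2 fold change 3.66 ± 0.31, adjusted p = 7.03e-09), and without CTRL replicate 2, which stood apart, the estimate was 5.55. NFKBIA, the inhibitor of NF-κB that NF-κB induces, was at 47.9, 43 and 48.4 CPM in CTRL and 157, 159.7 and 163 CPM in C/EBPδ-inducible cells (log2 fold change 1.78 ± 0.042, adjusted p = 1.78e-17). SERPINA3 was at 1.04, 1.18 and 0.871 CPM in CTRL and 0.156, 0.0444 and 0.0549 CPM in C/EBPδ-inducible cells, at least 6.25-fold lower. Genes of MHC class I and antigen processing had 8 higher and 3 lower of 17, with NLRC5, an activator of MHC class I genes, higher (log2 fold change 1.69 ± 0.11, adjusted p = 1.56e-10) and the immunoproteasome subunit PSMB8 lower (log2 fold change −2.26 ± 0.29, adjusted p = 2.22e-06). Exons of ISG15 and PSMB8 overlap a gene on the other strand, which leaves their values uncertain.

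Germline, imprinted and neuronal genes were mostly silent, and those expressed differed widely. Of 96 cancer-testis antigens, 86 had no count in any library, and the only one tested, PRAME, was at 15.8, 14.9 and 15.7 CPM in CTRL and 1.2, 1.24 and 1.32 CPM in C/EBPδ-inducible cells (log2 fold change −3.62 ± 0.12, adjusted p = 5.17e-15). Imprinted genes had 8 lower and 5 higher of 18. MEST was at 29.2, 28.7 and 26.2 CPM in CTRL and 0.677, 0.666 and 1.15 CPM in C/EBPδ-inducible cells (log2 fold change −5.09 ± 0.13, adjusted p = 9.88e-17), GRB10 at 4.22, 4.7 and 5.22 CPM in CTRL and 18.5, 16.1 and 18.2 CPM in C/EBPδ-inducible cells (log2 fold change 1.89 ± 0.10, adjusted p = 6.38e-12) and IGF2 at 0.603, 0.529 and 0.359 CPM in CTRL and 3.07, 4.0 and 2.85 CPM in C/EBPδ-inducible cells (log2 fold change 2.74 ± 0.26, adjusted p = 3.65e-08). Neuronal and endocrine markers had 6 lower and 2 higher of 15. SCG2, a granin of secretory granules, was at 2.74, 3.29 and 3.53 CPM in CTRL and 0, 0 and 0.0549 CPM in C/EBPδ-inducible cells and at least 19.4-fold lower, and SNAP25, of the vesicle fusion machinery, was at 0.932, 1.35 and 0.563 CPM in CTRL and 5.31, 5.64 and 5.65 CPM in C/EBPδ-inducible cells (log2 fold change 2.56 ± 0.21, adjusted p = 2.86e-09). Potassium channels had 7 lower and 2 higher of 19, with KCNC1 at 5.59, 5.58 and 6.45 CPM in CTRL and 0.989, 1.2 and 0.823 CPM in C/EBPδ-inducible cells (log2 fold change −2.53 ± 0.18, adjusted p = 4.35e-10). Exons of PRAME, MEST and IGF2 overlap a gene on the other strand, which leaves their values uncertain.

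**Figure D4:**
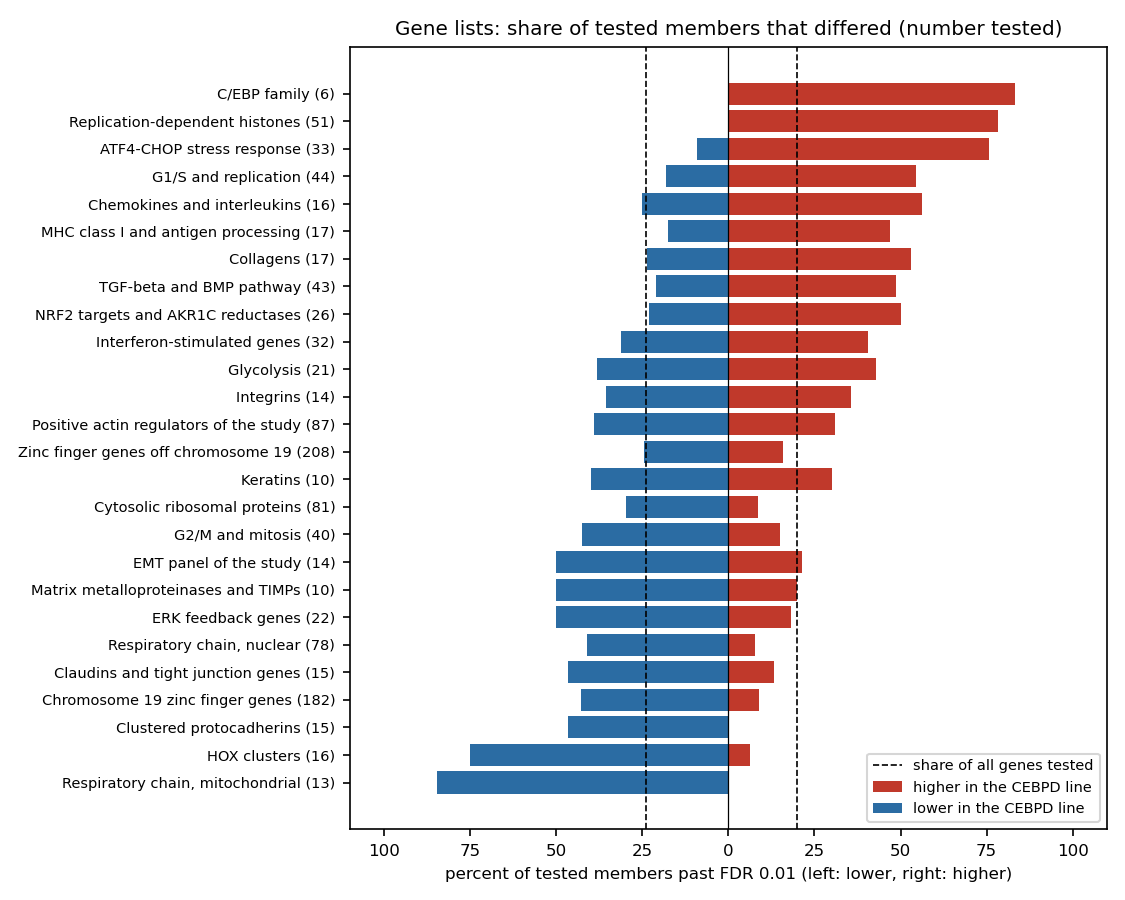
For 26 gene lists, bars give the percent of tested members that were higher (to the right) and lower (to the left) in untreated C/EBPδ-inducible cells at an FDR of 0.01, and dashed lines mark the same shares over all 15317 genes, 20.0% and 23.9%. The bars for ATF4-CHOP targets and histones, among others, reach far past the dashed line on the higher side. On the lower side, those for HOX clusters and the mitochondrial respiratory chain, whose count depended on the scaling, reach farthest. The bar for chromosome 19 zinc finger genes passes that line as well. Lists near the lines had shares close to those of all genes. With upper-quartile scaling the sides of the cytosolic ribosomal list and of the list of positive actin regulators turned.

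Lower expression ran over long stretches of neighboring genes on 6 chromosomes with windows of 50 genes. Tested genes with a mean of at least 1 CPM were ordered along each chromosome and divided into 255 windows of 50, or more for the last window of a chromosome, and each window is given by its median log2 fold change minus that of all 13411 genes in windows. Of these, 21 windows were at or below −0.3 and 2 at or above 0.3, and the other 232 lay between −0.29 and 0.179. The lower windows formed single runs on chromosomes 7 (139 to 159 Mb, median −0.40, a 0.756-fold level), 9 (73.2 to 138 Mb, −0.485), 13 (18.2 to 60.2 Mb, −0.39), 14 (69.7 to 106 Mb, −0.41), 18 (12.4 to 80.2 Mb, −0.43) and 20 (0.271 to 37.3 Mb, −0.52). With windows of 30 genes, 4 windows on chromosome 2 and 1 each on chromosomes 12 and 19 were also at or below −0.3, as was 1 of 50 genes on chromosome 2 without CTRL replicate 1. On chromosome 9 the run covered 7 windows with 371 genes, of which 280 were lower and 19 higher DEGs, and 88.7% lay below the median of all genes. Against the mean of the CTRL libraries, the 3 C/EBPδ-inducible libraries lay between −0.56 and −0.30 in every one of the 21 windows, and single CTRL libraries between −0.03 and 0.045. On chromosome 18 the sign changed along the chromosome: the first window (0.158 to 12.4 Mb) was at 0.47, with 35 higher and 1 lower of 50 genes, and the rest of the chromosome at −0.43. The next window was mixed, with 14 higher and 25 lower of 50 genes at −0.33, and with genes of at least 10 CPM the higher window reached position 23586506, at 0.40 with 33 higher and 12 lower. The other higher window, on chromosome 6 (26.0 to 27.9 Mb, 0.32, with 37 higher and 0 lower of 50), held the histone genes, and it fell under the cut-off without CTRL replicate 1 or C/EBPδ-inducible replicate 3.

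Genes of the lower windows made up 818 of the 3655 lower DEGs (22.4%), but 13.9% of those that were lower by more than 2-fold. Within the lower windows, 70.4% of 1162 tested genes were lower and 5.51% higher DEGs. Outside all described windows, 20.9% of 14055 genes were higher and 20.2% lower DEGs. The described windows were chosen by the line difference in these same libraries and were mostly lower. A smaller excess of lower calls outside them was thus built into the choice and is no separate result. By whole chromosome, the share of lower DEGs was highest on chromosome 9 (57.4%), followed by 20 (46.9%), 13 (42.9%), 18 (42.8%) and 14 (40.2%), against 23.9% over all. Chromosome 2 had 38.8% lower DEGs as well, but its windows of 50 genes lay between −0.29 and −0.01. The share of higher DEGs was highest on chromosome 10 (29.9%). Single genes departed from their windows: on chromosome 9, ENG, a TGF-β co-receptor, was at 26.4, 25.6 and 24.6 CPM in CTRL and 0.989, 0.622 and 1.15 CPM in C/EBPδ-inducible cells (log2 fold change −4.81 ± 0.13, adjusted p = 1.62e-16), and the choline carrier SLC44A1 was higher, at 28, 26.1 and 26.6 CPM in CTRL and 74.8, 75.3 and 75.1 CPM in C/EBPδ-inducible cells (log2 fold change 1.48 ± 0.046, adjusted p = 1.26e-15). On chromosome 20, FERMT1, which activates integrins, was at 319, 304 and 319 CPM in CTRL and 57.3, 56.9 and 54.4 CPM in C/EBPδ-inducible cells (log2 fold change −2.48 ± 0.036, adjusted p = 9.07e-21), and on chromosome 13 THSD1 was at 139, 138 and 139 CPM in CTRL and 25.6, 26.9 and 27.5 CPM in C/EBPδ-inducible cells (log2 fold change −2.38 ± 0.041, adjusted p = 9.97e-20). On chromosome 14 the kinase MAP3K9 was lower and PPP4R4 higher (log2 fold changes −2.31 and 3.36), on chromosome 18 NEDD4L was higher (1.80), and on chromosome 6 the butyrophilins BTN3A1 and BTN3A2 were higher (2.09 and 3.11). Expression counts do not measure DNA copy number, and the copies of these regions in either line were not tested. Exons of ENG, MAP3K9 and NEDD4L overlap a gene on the other strand, which leaves their values uncertain.

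**Figure D5:**
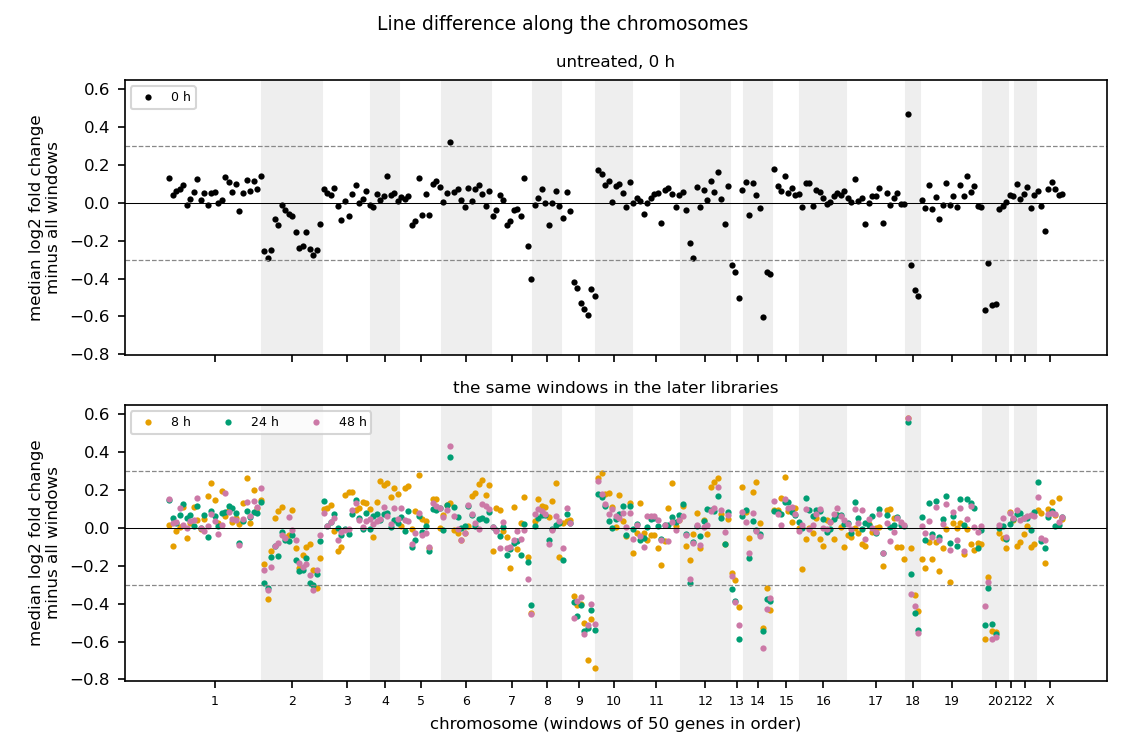
Each point is the median log2 fold change of 1 of 255 windows of 50 or more genes minus that of all genes in windows, ordered along the chromosomes, for the untreated lines and for the lines after 8, 24 and 48 h. The runs of lower windows on chromosomes 7, 9, 13, 14, 18 and 20 at 0 h are also below 0 at each later time, between −0.74 and −0.105.

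The later libraries share no sample with those at 0 h but come from the same lines, then on doxycycline, so they measure whether the difference lasted and not whether other clones would show it. Between the lines, 31.8% of genes tested were DEGs at 8 h, 46.9% at 24 h and 38.3% at 48 h. Of the genes higher at 0 h, 56.8%, 76.6% and 64.5% were DEGs in the same direction at 8, 24 and 48 h, and of those lower at 0 h 63.9%, 84.3% and 70.8%. In all, 3236 of the 6726 DEGs at 0 h (48.1%), 1312 higher and 1924 lower, were called in the same direction at all 3 later times. DEGs of the opposite direction were few, at most 35 of the higher and 36 of the lower genes at any time. The window medians kept their sign too: the 21 lower windows ran from −0.74 to −0.105 at 8 h, from −0.59 to −0.24 at 24 h and from −0.64 to −0.25 at 48 h, and the 2 higher windows, on chromosomes 6 and 18, were at 0.13 and 0.58 at 8 h, at 0.38 and 0.56 at 24 h and at 0.43 and 0.58 at 48 h.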

How the data were processed

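Total RNA was depleted of ribosomal RNA and sequenced, and the authors ran Trimmomatic, HISAT2 against GRCh38 and HTSeq, which gave counts per gene. The deposited table holds whole-number counts per Ensembl identifier for all 24 libraries, without normalization, and all columns could be assigned. Per the labels, HISAT2 was version 2.3.4.3 and Trimmomatic 0.36, and the methods name other versions. The strand setting is not given in the sources used here. Names and coordinates are those of GENCODE 44 on GRCh38, which named 56558 of 60675 identifiers.

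From the counts of the 6 libraries at 0 h, TMM-scaled levels (CPM, counts per 1e+06 counts of a library) were computed with edgeR 4.0.16 in R 4.3.3, and genes kept by filterByExpr were tested with its quasi-likelihood test, two-sided, with Benjamini-Hochberg adjustment over all genes tested and an FDR of 0.01, the cut-off of the study. Standard errors were taken as the log2 fold change over the square root of the F statistic. The study used an analysis of variance for its contrast at 24 h, which was an alternative here, as were DESeq2 1.42.0, upper-quartile scaling, other filters on low counts, fitting all 24 libraries at once, a block for the replicate number, a 2-fold threshold, windows of 30 genes or at least 10 CPM, and each library left out in turn. With 3 against 3 libraries, an exact permutation test of 1 gene cannot go below p = 0.1, so calls rest on the model across genes. The edgeR, DESeq2 and analysis of variance tests were tested on simulated data. Per-library totals from 17328881 to 22053973 set the precision, and floors cover counting error only, as the sources name no molecular identifiers.

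The members and lists were chosen with earlier results of these data known, and no list was tested as a set. Each list is described by its counts and median. Named genes are the C/EBP family, the 7 migration genes and the EMT panel of the study, the 10 protein-coding genes with the largest change in each direction (non-overlapping libraries, at least 5 CPM in the higher line), the 5 per direction with the highest level where the other line was at the floor, the 4 with the largest change in each list and the 3 in each window, the 5 per direction with the largest change at a mean of at least 100 CPM, and the cell markers. Other genes named, the printed promoters and the HOX and zinc finger divisions were chosen after their values were seen. A few genes and 1 gene list are not reported here.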

Additional observations from a re-analysis of the deposited data

Results flagged for a closer look

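For 7 of the named genes, the difference between the lines was past the threshold in one direction at 0 h and in the other at a later time. At the later times the cells were on doxycycline. Over all genes, 35 of 3043 genes higher and 33 of 3640 lower at 0 h were called in the opposite direction at 24 h. For the 7 genes, the libraries of the lines had to be apart at both times, so that separation was built into the choice. Whether the later difference departs from that at 0 h was not tested here. CDH1 had a log2 fold change of −3.04 at 0 h and of 2.76 at 8 h, 0.879 at 24 h and 1.88 at 48 h, where C/EBPδ-inducible cells held 4.42, 3.65 and 6.21 CPM at 8 h and CTRL cells 0.148, 1.08 and 0.902 CPM. SLC2A3 went from −1.42 to 0.663 at 24 h and 0.732 at 48 h. MT-ND4L went from −0.21 to 0.344 at 8 h, and its 0 h difference was not called in the model of all 24 libraries or with the analysis of variance. Genes higher at 0 h and lower later were MYPN (0.945 at 0 h, −0.405 at 48 h), AXL (0.62 at 0 h, −0.224 at 24 h and −0.297 at 48 h), EGFR (0.55 at 0 h, −0.471 at 24 h) and NET1 (0.15 at 0 h, −0.557 at 24 h and −0.442 at 48 h). These last 4 are among the 7 migration genes of the study. The study chose those 7 on 24 h samples of this series and reported all of them as lower upon induction. Lower values of these genes at 24 h are thus no independent evidence. At 24 h EGFR was at 182, 193 and 187 CPM in CTRL and 136, 133 and 137 CPM in C/EBPδ-inducible cells, and NET1 at 351, 348 and 336 CPM in CTRL and 237, 226 and 243 CPM in C/EBPδ-inducible cells.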

How the results depend on the processing

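No named gene past the threshold changed sign under any alternative run, but the majority of all DEGs turned with upper-quartile scaling, and with it the majority or the sign of the median turned for 16 of 80 gene lists (10 with the 2-fold threshold, 5 with the analysis of variance). Against 6726 DEGs (3071 higher, 3655 lower), the analysis of variance called 3856 (1622 and 2234) and a threshold of 2-fold left 1354 (565 and 789). DESeq2 called 5778, upper-quartile scaling 7180 (4049 higher, 3131 lower), no filter 7132 of 31862 genes, a minimum of 10 counts 6815 and the model of all 24 libraries 6174. With each library left out, the count ran from 5951 to 6619, with 2577 to 2960 higher and 3368 to 3659 lower. A block for the replicate number gave 6317 DEGs at 0 h, 4670 at 8 h (4946 without the block), 7131 at 24 h (7360) and 6556 at 48 h (5965). Same-numbered libraries did not deviate together at 0 h (r of −0.0425, −0.0502 and 0.0202 across genes), so the numbers were not taken as pairs. Windows of 30 genes gave 42 lower windows of 435 and 2 higher ones, and genes of at least 10 CPM 15 lower and 1 higher window of 167. With each library left out, 21 windows were lower in each case, 1 of them on chromosome 2 without CTRL replicate 1, and 1 to 2 were higher, 1 without CTRL replicate 1 or C/EBPδ-inducible replicate 3. Of 368 named genes called, 224 were called in the same direction under every alternative that tested them, 315 when the 2-fold threshold is set aside, and 352 when the analysis of variance is set aside as well. Depth limits genes near the floor, where a change below about 3 counts was not detectable. The construct, the fluorophore and the clones of a line cannot be told apart, and the causes of these shifts were not tested.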
